A study of Saccharomyces cerevisiae with 9 samples.

Results

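The allantoin pathway and the GATA factors that govern it were followed in yeast exposed to a GC preparation of hen of the woods, a mushroom, or of soybean. The 10 genes were taken by name, and each had 1 probe on the array, found by its systematic open reading frame name, so 10 of the 6199 genes on the array are described. They comprise the permeases DAL4 and DUR3, the enzymes DAL1, DAL2, DAL3 and DAL7, and the GATA-type transcription factors GLN3, GAT1, DAL80 and GZF3. The cells were of BY4743, a diploid strain of budding yeast used in laboratories, and 3 samples each were HenGC-treated, SoyGC-treated or vehicle controls. The series' design text gives 40 ug/ml and 17 h for the preparations and does not spell out GC. It gives no dose or time for the vehicle, and the labels do not say whether the samples were separate cultures, so the p-values reflect the spread among the deposited samples alone, some or all of it possibly technical.

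Allantoin is a breakdown product of purines that yeast can use as a nitrogen source when better ones are lacking. Uptake and a chain of enzymes turn it into ammonium, carbon dioxide and glyoxylate. These genes are kept low on good nitrogen sources, a control called nitrogen catabolite repression. Its factors bind GATA sequences in promoters: Gln3 and Gat1 activate, while Dal80 and Gzf3 repress, and DAL80 and GAT1 are themselves targets of the system.

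Levels below are log2 signals relative to the 75th percentile of the same array, so a level of 0 is that percentile itself, and a level of 1 probe is never set against that of another. All 10 genes were well above background on all 9 arrays, 90 of 90 measurements, and 0 of their spots were saturated. The 7 spots of a probe had a median SD of 0.056 on the log2 scale, and the number of arrays limits the precision. Over the 9 arrays the 75th percentile of the signal was 5273 to 7803, and among the 43792 spots the share well above background was 92.4% to 95.8%. HIS3, LEU2 and URA3, which are deleted in whole or in part in this strain, were well above background on 0 arrays, while 9 of 12 genes that diploids turn down were well above it on all 9. Vehicle 3 stood apart: at 515 of 5820 genes tested its level was over 2-fold away from its group mates' mean, and 503 of these were lower. HenGC 1 and 2 shared a slide, SoyGC 1 and 2 were on the same slide as vehicle 1 and 2, and replicate 3 of every group was on the third, scanned on a later day. Scan day 2 thus holds only replicate 3 of each group. A difference within it sets a single array against a single array, and its vehicle is vehicle 3.

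Among the 10 genes, calls against vehicle came only in SoyGC-treated cells. They were lower mRNA of the urea transporter, of the malate synthase of the allantoin gene cluster and of 1 GATA activator. DUR3 fell 1.91-fold, DAL7 2.17-fold and GAT1 1.43-fold in limma's test, and the other 7 genes had differences below 0 that did not pass. Thus 3 of 10 genes fell and 0 rose at an adjusted p under 0.05. Of the 5820 genes tested 9.24% passed that threshold, 5.93% lower and 3.32% higher. The 10 genes were chosen with earlier results of these data known, so their count is not independent of those results. The count was 0 of 10 in the fit of the 2 groups alone, in the authors' table and in scan day 1 arrays alone, and of 21 alternatives 14 ended the call of GAT1, 11 that of DAL7 and 6 that of DUR3. In bulk RNA, fewer cells that express a gene and less of its RNA per cell cannot be told apart. The median difference from vehicle over the 10 genes was -0.58, and over all genes tested it was 0.00. In HenGC-treated cells 0 of 10 genes passed, at a background of 1.19% of all genes, 0.275% lower and 0.911% higher, and 5 of 10 had an unadjusted p under 0.05, as had 21.4% of all genes. There the median difference over the 10 genes was -0.31, with DAL80 as the 1 gene above 0. DUR3, DAL7 and GAT1 lay below all vehicle arrays on every HenGC array too, and GAT1 differed more in HenGC than in SoyGC. An adjusted p depends on all genes tested in its comparison, so passing in SoyGC alone does not show a difference between the preparations. No gene of the 10 passed the F-test for any difference among the 3 groups, which 1.91% of all genes passed, although 8 had an unadjusted p under 0.05, as had 26.8% of all genes.

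**Figure D1:**
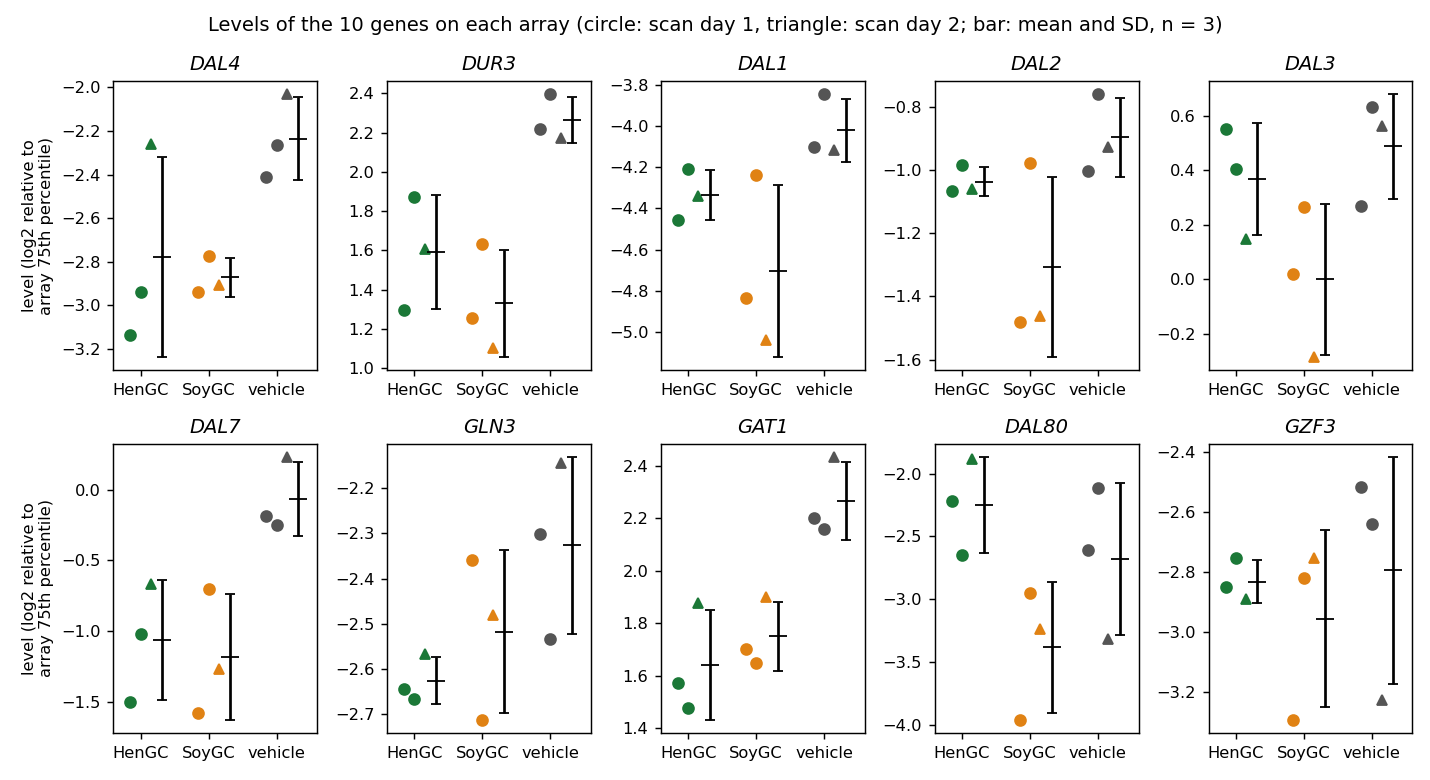
Levels of the 10 genes on each array (log2 relative to the array's 75th percentile), with HenGC, SoyGC and vehicle from left to right, circles for scan day 1, triangles for scan day 2, and the mean and SD of 3 arrays as a bar. DUR3, DAL7 and GAT1 lie lower on every HenGC and SoyGC array than on any vehicle array, and vehicle 3 is the lowest vehicle array for DAL80 and GZF3.

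DUR3 encodes the plasma membrane transporter that brings in urea, which the allantoin pathway also produces. Its level was 1.29, 1.87 and 1.61 on HenGC arrays 1 to 3, 1.26, 1.63 and 1.10 on SoyGC arrays 1 to 3, and 2.22, 2.40 and 2.17 on vehicle arrays 1 to 3. All 6 treated arrays lay below all 3 vehicle arrays, while HenGC and SoyGC overlapped. The difference from vehicle was -0.67 ± 0.18 in HenGC (SE, n = 3 per group, limma adjusted p = 0.104) and -0.93 ± 0.18 in SoyGC (adjusted p = 0.0283). Only 1.05% of all genes tested had a lower difference in SoyGC. Within scan day 1 the SoyGC difference was -0.86, and within scan day 2, as SoyGC 3 minus vehicle 3, it was -1.07.

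DAL4 encodes the allantoin permease. It stood at -3.14, -2.94 and -2.26 on HenGC arrays, at -2.94, -2.77 and -2.90 on SoyGC arrays and at -2.41, -2.26 and -2.03 on vehicle arrays. The SoyGC arrays were close together and all below vehicle, whereas HenGC 3 lay within the vehicle range. Differences were -0.54 ± 0.21 in HenGC (limma adjusted p = 0.192) and -0.64 ± 0.21 in SoyGC (adjusted p = 0.087), and neither passed. In SoyGC it passed with scan day or slide as a fixed block (adjusted p = 0.0482 and 0.0474), and over all alternatives the adjusted p was 0.0384 to 0.391.

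DAL1 and DAL2 encode the enzymes that open the pathway. DAL1, the allantoinase, which opens the allantoin ring, was at -4.46, -4.21 and -4.34 on HenGC arrays, at -4.83, -4.24 and -5.04 on SoyGC arrays and at -4.10, -3.85 and -4.12 on vehicle arrays. Both treated groups lay below vehicle without overlap, with HenGC 2 and vehicle 3 close to each other. The SoyGC difference was -0.68 ± 0.19 (limma adjusted p = 0.0582), and with each array left out in turn it ran from -0.92 without SoyGC 2, the 1 omission of 9 at which it passed (adjusted p = 0.0388), to -0.52 without SoyGC 3 (adjusted p = 0.178). With scan day as a block it passed (adjusted p = 0.0488), and with slide as a fixed block it did not (adjusted p = 0.076). In HenGC it was -0.31 ± 0.19 (adjusted p = 0.346).

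DAL2, the allantoicase, which splits allantoate, gave -1.07, -0.98 and -1.06 on HenGC arrays, -1.48, -0.98 and -1.46 on SoyGC arrays and -1.003, -0.76 and -0.93 on vehicle arrays. SoyGC 2 lay with HenGC and vehicle 1, and the other SoyGC arrays lay lower. DAL3, the ureidoglycolate lyase, which yields glyoxylate and urea, gave 0.55, 0.41 and 0.15 on HenGC arrays, 0.02, 0.27 and -0.29 on SoyGC arrays and 0.27, 0.63 and 0.56 on vehicle arrays. For DAL3 the highest SoyGC array was just under the lowest vehicle array, and HenGC overlapped vehicle. The SoyGC differences of DAL2 and DAL3 were -0.41 ± 0.14 and -0.49 ± 0.17 (limma adjusted p = 0.0982 and 0.0981), and those in HenGC were -0.14 ± 0.14 and -0.12 ± 0.17.

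DAL7 encodes a malate synthase that uses the glyoxylate released from allantoin. Its level was -1.50, -1.02 and -0.67 on HenGC arrays, -1.58, -0.71 and -1.27 on SoyGC arrays, and -0.18, -0.25 and 0.23 on vehicle arrays. No treated array reached the lowest vehicle array. Of the 10 genes it had the lowest difference in both comparisons, -0.995 ± 0.27 in HenGC (limma adjusted p = 0.11) and -1.12 ± 0.27 in SoyGC (adjusted p = 0.0404). In HenGC 0.206% of all genes tested had a lower difference. With array weights in the fit the SoyGC difference was -0.73 (adjusted p = 0.0341). The related malate synthase gene MLS1, chosen after its values were seen, had -3.92, -3.92 and -2.31 on HenGC arrays, -4.32, -3.91 and -4.27 on SoyGC arrays and -3.90, -3.56 and -3.31 on vehicle arrays. Its differences were 0.21 ± 0.39 in HenGC and -0.58 ± 0.39 in SoyGC, neither of which passed, and whether the DAL7 probe also binds MLS1 RNA was not tested.

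GAT1 encodes a GATA activator. It was at 1.57, 1.48 and 1.88 on HenGC arrays, at 1.70, 1.65 and 1.90 on SoyGC arrays and at 2.20, 2.16 and 2.43 on vehicle arrays. Replicate 3, the array on slide 3, was the highest of each group, and all 6 treated arrays lay below vehicle. The difference was -0.62 ± 0.13 in HenGC (limma adjusted p = 0.064) and -0.51 ± 0.13 in SoyGC (adjusted p = 0.047). Within scan days 1 and 2 it was -0.66 and -0.56 in HenGC and -0.51 and -0.53 in SoyGC. The scan day 2 values are replicate 3 minus vehicle 3. HenGC 1 and 2 were alone on their slide, and with slide as a fixed block the HenGC difference was -0.55 (adjusted p = 0.447). With scan day as a block the adjusted p in HenGC was 0.0153, in the fit of the 2 groups alone it was 0.149, and over all alternatives it was 0.0046 to 0.447.

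GLN3, the other activator, gave -2.64, -2.67 and -2.57 on HenGC arrays, -2.36, -2.71 and -2.48 on SoyGC arrays and -2.30, -2.53 and -2.15 on vehicle arrays. HenGC lay below vehicle without overlap, and SoyGC overlapped both. The differences of -0.30 ± 0.13 in HenGC (limma adjusted p = 0.224) and -0.19 ± 0.13 in SoyGC (adjusted p = 0.374) did not pass.

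DAL80, a GATA repressor, had the widest range of the 10 genes, 2.07 over the 9 arrays. It stood at -2.22, -2.64 and -1.88 on HenGC arrays, at -3.96, -2.95 and -3.24 on SoyGC arrays and at -2.61, -2.11 and -3.32 on vehicle arrays. All HenGC arrays were above all SoyGC arrays, and vehicle overlapped both. Vehicle 3 lay at -0.96 relative to the mean of vehicle 1 and 2. The HenGC difference from vehicle was 0.43 ± 0.35 over all arrays (limma adjusted p = 0.462). It was -0.07 on scan day 1 arrays and 1.43 on scan day 2, which is HenGC 3 minus vehicle 3. For SoyGC it was -1.10 and 0.08 within the days (-0.70 ± 0.35 over all arrays, adjusted p = 0.229), and without vehicle 3 it was -1.02 with an adjusted p of 0.0931.

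GZF3, the other repressor, gave -2.85, -2.75 and -2.89 on HenGC arrays, -3.29, -2.82 and -2.75 on SoyGC arrays and -2.52, -2.64 and -3.23 on vehicle arrays. The 3 groups overlapped, with vehicle 3 low as for DAL80. The differences were -0.04 ± 0.20 in HenGC and -0.16 ± 0.20 in SoyGC (limma adjusted p = 0.918 and 0.634). Within scan day 2, where vehicle 3 is the sole vehicle array, they were 0.34 and 0.47, the opposite sign to scan day 1, which had -0.22 and -0.48.

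**Figure D2:**
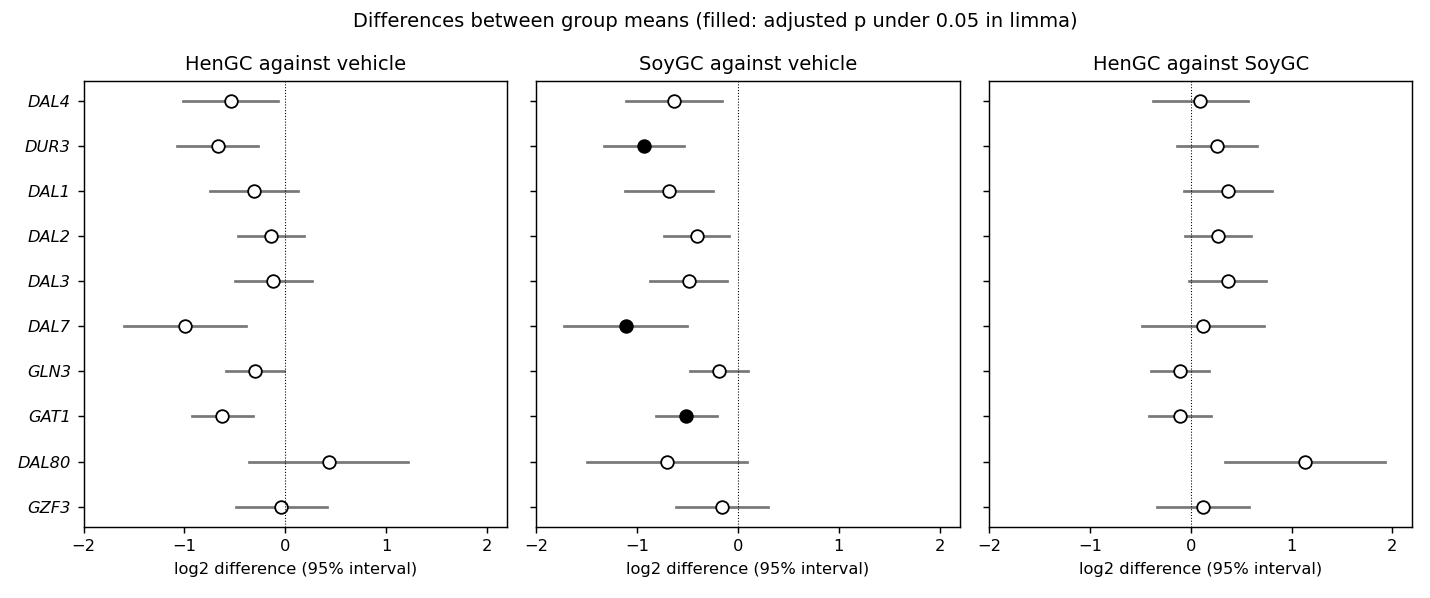
Differences between group means (log2, x axis) with their 95% intervals for each gene (y axis), HenGC against vehicle on the left, SoyGC against vehicle in the middle and HenGC against SoyGC on the right, filled where the adjusted p was under 0.05. DUR3, DAL7 and GAT1 are filled against vehicle in SoyGC, and 0 genes are filled in the other panels.

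Across the 3 groups 7 of 10 genes shared 1 order of means, with SoyGC lowest, then HenGC, then vehicle. The share of all genes with this order was not computed. For DAL3, DAL4, DAL7 and GZF3 a difference behind the order changed sign in some alternatives. For GAT1 and GLN3 the HenGC mean was the lowest, and for DAL80 the HenGC mean was the highest. Treated arrays lay below all vehicle arrays at 5 of 10 genes in HenGC, namely DAL1, DAL7, DUR3, GAT1 and GLN3, at a background of 17.8% of all genes (30% in either direction). In SoyGC this held for 6 of 10, namely DAL1, DAL3, DAL4, DAL7, DUR3 and GAT1, at a background of 20.5% (34.2% in either direction). The 2 comparisons share the vehicle arrays, so their values stand side by side and are no repeat of each other. The SoyGC calls depended on which array was left out, as they did over all genes, where 538 calls became 2 to 387. DUR3 did not pass without SoyGC 1, SoyGC 3 or vehicle 2 (limma adjusted p = 0.0688, 0.0994 and 0.0866). The HenGC arrays also count here, because the 3 groups share 1 estimate of the spread. DAL7 passed only without HenGC 1 or HenGC 3 and GAT1 only without HenGC 3, with the highest adjusted p at 0.13 for both, while the differences of all 3 genes stayed below 0 with each of the 9 arrays left out.

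The direct comparison asked whether HenGC and SoyGC differed at the same dose and time. In limma's test 0 of 10 genes passed, as did 0 of all 5820 genes (0%), and 1 of the 10 had an unadjusted p under 0.05, near the 12.6% of all genes. That gene was DAL80, at 1.13 ± 0.35 for HenGC minus SoyGC (95% interval 0.34 to 1.93, unadjusted p = 0.0101 and adjusted p = 0.299 in limma's fit over all genes). It was also the 1 gene of the 10 whose HenGC and SoyGC arrays did not overlap, which held for 21.5% of all genes in either direction and for 10.5% with HenGC higher, and the difference was 1.02 on scan day 1 arrays and 1.35 on scan day 2 arrays. On scan day 1 HenGC and SoyGC lay on different slides, and on scan day 2 on the same one. The 5 DAL genes of chromosome IX all had HenGC means above SoyGC, by 0.09 to 0.37. Their intervals reached from -0.07 to 0.81 for DAL1, from -0.01 to 0.75 for DAL3 and from -0.48 to 0.73 for DAL7, so differences of that size are not excluded by these arrays. For GAT1 and GLN3 the difference was -0.11 each, with intervals from -0.41 to 0.20 and from -0.40 to 0.18. DUR3 was at 0.26 with an interval from -0.14 to 0.66.

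DAL1, DAL4, DAL2, DAL7 and DAL3 lie together on chromosome IX in that order, with DCG1, a gene of little known function, between DAL2 and DAL7. Their order comes from a gene table of assembly R64, and no coordinates are given because the array was designed on sacCer2. DCG1, which is none of the 10 genes, gave -3.73, -3.35 and -3.50 on HenGC arrays, -3.70, -3.45 and -3.79 on SoyGC arrays and -3.13, -2.96 and -3.15 on vehicle arrays. It fell in SoyGC by 0.57 ± 0.13 on the log2 scale (limma adjusted p = 0.0381), and its HenGC difference was -0.44 ± 0.13 (adjusted p = 0.127). Of the 3 genes on each side of the cluster, 0 of 6 passed in either comparison. In HenGC 21.4% of all genes had an unadjusted p under 0.05, and in SoyGC 27.6% had, as had 2 and 3 of these 6. Their differences ran from -0.29 to 0.57 in HenGC and from -0.65 to 0.44 in SoyGC. MGA2, next to DAL3, was at -0.65 in SoyGC, and YVH1, next to DAL1, was at 0.44. LYS1, beyond MGA2, was the lowest of the 6 in HenGC at -0.29, lower than DAL2 and DAL3 there. Its treated arrays all lay below its vehicle arrays. Of the 6 neighbours 3 were above 0 in HenGC and 2 in SoyGC.

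**Figure D3:**
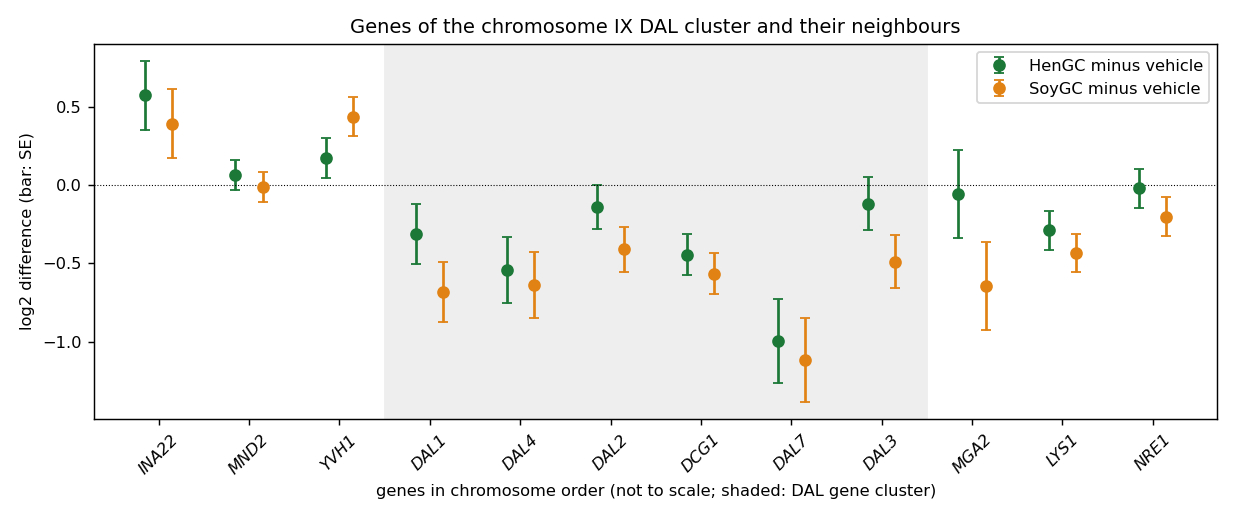
Differences from vehicle (log2, bars are SE) for the genes of the chromosome IX cluster, shaded, and 3 genes on each side, in chromosome order but not to scale, for HenGC and SoyGC. All 6 genes of the cluster lie below 0 for both preparations, while the neighbours lie on both sides of 0. For HenGC the neighbour LYS1 lies lower than DAL2 and DAL3.

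Deviations within groups were shared by some pairs of the 10 genes and opposed in others. SoyGC 2 lay above the mean of SoyGC 1 and 3 at 8 of 10 genes, with a median of 0.43, where the median over all genes tested was 0.00. HenGC 1 and SoyGC 1 each lay below their group mates at 8 of 10. DAL1 and DAL2, after each group's mean was taken out, correlated at 0.95 over the 9 arrays, DAL1 and DUR3 at 0.88 and DAL4 and DAL7 at 0.77, whereas DAL3 and DAL4 were at -0.26. Over the 10 pairs of the 5 DAL genes the median was 0.52, with 8 above 0. The other 35 pairs had a median of 0.18, with 18 above 0, and the lowest were those of GLN3 with DAL2, DAL80 and DAL1, at -0.80, -0.76 and -0.74. These values are descriptions over 9 arrays that share slides and a scaling step. Vehicle 3, which stood apart across the array, had a median of 0.03 over the 10 genes against vehicle 1 and 2. Its farthest genes were DAL80 at -0.96, GZF3 at -0.65 and DAL7 at 0.45.

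**Figure D4:**
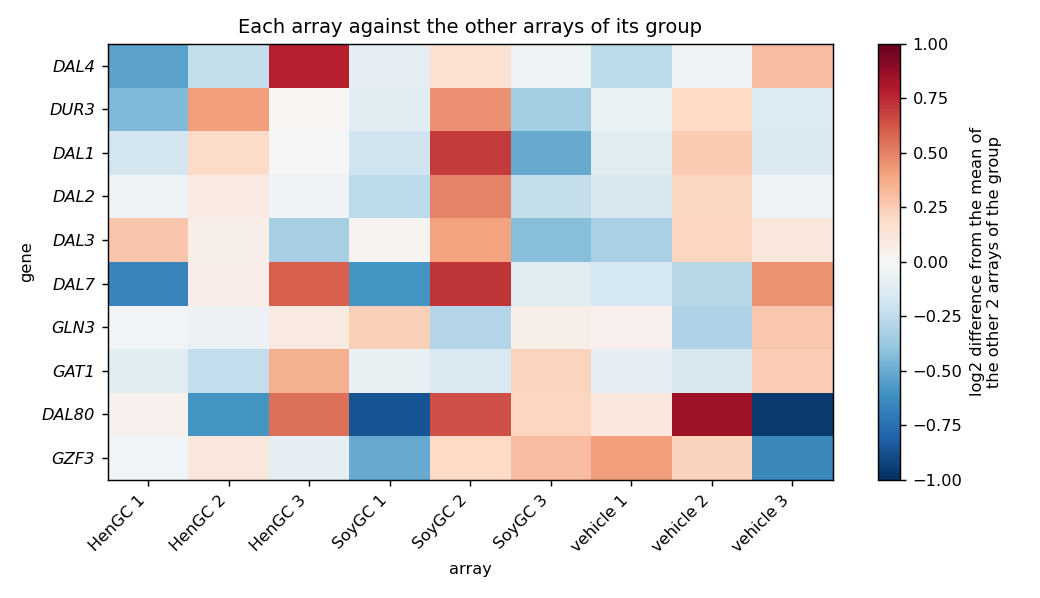
Each array's level minus the mean of the other 2 arrays of its group (log2, colour), with genes in rows and arrays in columns. SoyGC 2 is above its group mates for 8 of 10 genes, and DAL80 and GZF3 are low in vehicle 3.

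The genes most like the mean of the 5 DAL genes in their profile over the 9 arrays were DAL5, OPT2, UGA4, SUR2 and YER188W, with Pearson's r of 0.99, 0.98, 0.98, 0.98 and 0.96. DAL5 encodes the allantoate permease, OPT2 an oligopeptide transporter, UGA4 the permease for gamma-aminobutyrate and SUR2 the sphinganine hydroxylase of ceramide synthesis. DCG1 was most like DUR3 (0.996), followed by GCR1 and OPT2. Closest to GAT1 were OST5, NST1 and BUB2, each at 0.98, and closest to DAL80 were CIS1, SPG4 and NRS1, at 0.96, 0.96 and 0.95. Without vehicle 3 the lowest of these 14 values was 0.948. High values are easily reached when the best of 5820 genes are picked over 9 arrays.

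Of the other genes of allantoin and urea use, 2 of 5 fell in SoyGC, DAL5 and DCG1, where 5.93% of all genes fell. In HenGC 0 of 5 passed, at a background of 1.19%, and 3 had an unadjusted p under 0.05, as had 21.4% of all genes. Without vehicle 3 the SoyGC count was 1, and it was 0 to 2 over all arrays left out in turn. DAL5 was at -0.81, -0.52 and -0.28 on HenGC arrays, at -1.64, -0.31 and -1.44 on SoyGC arrays and at 0.30, 0.74 and 0.50 on vehicle arrays. No treated array overlapped vehicle, and SoyGC 2 lay well above the other SoyGC arrays. DAL5 fell by 1.64 ± 0.32 in SoyGC on the log2 scale (limma adjusted p = 0.0285), and in HenGC its difference was -1.05 ± 0.32 (adjusted p = 0.134). DUR12, the urea amidolyase that breaks urea down to ammonium, was at -0.38 ± 0.17 in HenGC and -0.53 ± 0.17 in SoyGC and did not pass. The activators DAL82 and DAL81, through which the pathway responds to its inducer, did not pass either. DAL82 was at 0.02 ± 0.08 in HenGC and -0.08 ± 0.08 in SoyGC, and DAL81 was at 0.23 ± 0.31 and 0.31 ± 0.31, with vehicle 3 at -2.97 against -1.63 and -1.88 in the other vehicle arrays.

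Of 17 genes that control the GATA factors 0 passed in HenGC, with 5 at an unadjusted p under 0.05, as had 21.4% of all genes. In SoyGC, where 5.93% of all genes fell, 3 of the 17 fell. These were NPR1, a kinase that controls permeases (-0.40 ± 0.10), and VPS15 and VPS34, the subunits of the phosphatidylinositol 3-kinase (-0.52 ± 0.11 and -0.46 ± 0.11), with limma adjusted p of 0.0468, 0.0321 and 0.0423. This count was 0 without vehicle 3, and 0 or 1 with any other array left out. URE2, whose product holds Gln3 in the cytoplasm, was at 0.42 ± 0.28 in HenGC and 0.31 ± 0.28 in SoyGC, with the lowest level of all, -2.05, in vehicle 3. The list's median difference was -0.10 in both comparisons. Of 6 transcription factors of nitrogen and amino acid pathways, UGA3, PUT3, ARG80, ARG81, LEU3 and GCN4, 0 passed in either comparison. At an unadjusted p under 0.05 there were 0 in HenGC and 1 in SoyGC, against 21.4% and 27.6% of all genes. The median of the 6 was 0.10 in HenGC and 0.16 in SoyGC.

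Among 34 other genes repressed by good nitrogen sources, 20 fell in SoyGC and 0 rose, 4 of the 20 being the near-identical ASP3 copies. Of all genes tested 5.93% fell there and 3.32% rose. In SoyGC 33 of the 34 had differences below 0, as had 49.59% of all genes. In HenGC 32 of the 34 were below 0, as were 49.97% of all genes. There 0.275% of all genes fell, and of the 34 genes 2 fell. These were the ammonium permease gene MEP1 (-1.01 ± 0.16, limma adjusted p = 0.0276) and the peptide transporter gene PTR2 (-0.77 ± 0.14, adjusted p = 0.0425), and without vehicle 3 the count was 1. Both fell in SoyGC too, by 1.15 and 0.86 on the log2 scale. The list's median was -0.38 in HenGC and -0.46 in SoyGC, against 0.00 over all genes tested in each. Those that fell in SoyGC include UGA4 (-1.54 ± 0.29), OPT2 (-1.23 ± 0.23), the proline oxidase gene PUT1 (-1.06 ± 0.26), the acidic amino acid permease gene DIP5 (-1.05 ± 0.16), the ammonium permease gene MEP2 (-0.76 ± 0.15) and the transaminase gene UGA1 (-0.54 ± 0.14). The rest were PRB1, CAN1, OPT1, AMD2, UGA2, GDH1, GDH2 and GDH3, with differences from -0.88 to -0.36. For the 6 given with values, limma's adjusted p was 0.0273, 0.0273, 0.0422, 0.0197, 0.0291 and 0.047. GAP1, the general amino acid permease, had -0.31 ± 0.17 in HenGC and -0.56 ± 0.17 in SoyGC (adjusted p = 0.312 and 0.073). The count of 20 was 0 without SoyGC 3, 1 without vehicle 2 and 7 without vehicle 3, and it was 4 and 7 with SoyGC 1 or SoyGC 2 left out. Leaving out vehicle 1 gave 11, and leaving out any 1 HenGC array gave 12 to 14. With slide as a fixed block it was 6.

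**Figure D5:**
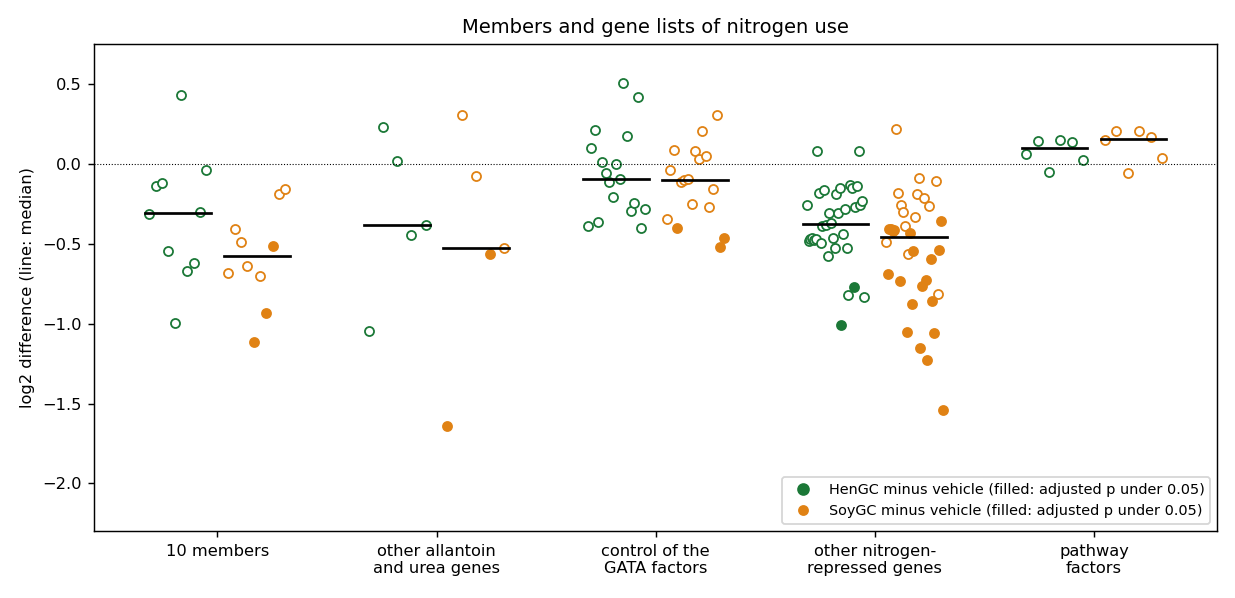
Differences from vehicle (log2, y axis) for the 10 genes and 4 lists of genes of nitrogen use, with 1 point per gene, HenGC left of SoyGC, filled where the adjusted p was under 0.05, and a line at each median. In SoyGC 3 of the 10 genes and 20 of the 34 other nitrogen-repressed genes are filled, all below 0, where 5.93% of all genes tested fell.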

How the data were processed

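Total RNA of 9 samples was labelled with Cy3 and hybridised to Agilent arrays, 1 colour, per the labels' protocols. The deposited scanner files hold a linear intensity per spot, background-subtracted and detrended by Agilent Feature Extraction 11.0.1.1, per the file headers, with no scaling across arrays. In the authors' deposited table, intensity values equalled the mean of the 7 spots of each probe for 100% of values (relative tolerance 1e-06), so its scale is linear, with no centring. Its column medians were 1772, 1799 and 2634 for HenGC 1 to 3, 1772, 2177 and 2504 for SoyGC 1 to 3, and 2322, 2105 and 2009 for vehicle 1 to 3. The submitters' processing notes also name R 3.0.2.

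Here log2 processed signals minus the array's 75th percentile were averaged over spots, without control and outlier spots. Genes with a probe well above background (over 50% of its spots) on every array of 1 or more groups were kept for testing, 5820 of 6199, with limma 3.58.1 in R 4.3.3, 1 mean per group over 9 arrays, and Benjamini-Hochberg adjustment over all genes. The brightest probe stood for a gene. Of 6256 probes, 5765 matched the gene table of R64, 462 kept an open reading frame name and 29 had no name used. The fit was tested on simulated data.

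The 10 genes and all lists were chosen with earlier results of these data known. Named are the 10 genes, the allantoin and urea list, URE2, GAP1, MEP2, PUT1 and UGA1, listed genes past the threshold in part, the closest profiles and the neighbours of the cluster. Alternatives were other scalings, normexp on median signals (the planned version on mean signals was not run), no filter, the authors' table, blocks, array weights, fits of 2 groups and each array left out.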

Additional observations from a re-analysis of the deposited data

Results flagged for a closer look

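DAL80 was the 1 gene of the 10 for which every HenGC array lay above the vehicle mean and every SoyGC array below it. The share of all genes with this pattern was not computed, and HenGC and SoyGC arrays did not overlap at 21.5% of all genes. The difference of HenGC minus SoyGC was 1.13, with levels of -2.25 ± 0.38 in HenGC and -3.38 ± 0.52 in SoyGC, and -2.68 ± 0.61 in vehicle (SD, n = 3). The test of the difference itself did not pass (limma adjusted p = 0.299). HenGC 2, at -2.64, lay close to the vehicle mean, and that mean includes vehicle 3, at -3.32. HenGC 2 was lower than vehicle 1 and 2, at -2.61 and -2.11, so the HenGC part of this pattern holds only with vehicle 3 in the mean. Without that array the difference from vehicle was 0.11 in HenGC and -1.02 in SoyGC on the log2 scale (limma adjusted p = 0.908 and 0.0931).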

How the results depend on the processing

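The counts of the 10 genes moved as follows. In HenGC against vehicle 1 passed instead of 0 with the replicate block, with scan day as a block and in scan day 1 arrays alone, and 4 with array weights. In SoyGC against vehicle 5 passed instead of 3 with scan day as a block, 6 with array weights, 4 with the replicate block or slide as a random block, 2 after quantile normalization, after median scaling and without the filter, and 0 in the authors' table, in the fit of 2 groups and in scan day 1 arrays alone. The F-test gave 2 instead of 0 with the replicate block or scan day as a block, and 5 with array weights. With single arrays left out the SoyGC count was 0 to 4. The count of all genes in HenGC, 69, was 39 after quantile normalization, 26 after median scaling, 45 without the filter, 3 in the authors' table, 125 with scan day as a block, 0 with slide as a fixed block (478 at an unadjusted p under 0.05), 875 with array weights, 6 in the fit of 2 groups, and 3 to 50 with arrays left out. In SoyGC, 538 became 315 after median scaling, 8 in the authors' table, 187 with slide as a fixed block, 1243 with array weights, 50 in the fit of 2 groups, 35 in scan day 1 arrays alone and 2 to 387 with arrays left out. For HenGC against SoyGC, 0 became 1 without the filter and 21 with array weights. The F-test's 111 became 55 after median scaling, 5 in the authors' table, 307 with the replicate block, 345 with scan day as a block, 0 with slide as a fixed block, 1341 with array weights, 25 in scan day 1 arrays alone and 0 to 96 with arrays left out. The split between higher and lower calls also moved. In HenGC it was 53 and 16, against 422 and 453 with array weights, and in SoyGC 193 and 345, against 186 and 201 after quantile normalization. Median shifts of all genes stayed within 0.1 except in the authors' table, where HenGC was at -0.15. HenGC 1 and 2 shared their slide with no other group, so with slide as a fixed block the HenGC difference rests on HenGC 3. The HenGC and F-test counts of that fit thus have 1 informative HenGC array.

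Of 210 single differences per comparison, 197 kept direction and call in HenGC, 168 in SoyGC and 202 between the preparations. In SoyGC 31 calls of DAL7, GAT1 and DUR3 were lost and 10 calls of DAL1, DAL4 and DAL80 were gained. Signs turned for GZF3 in HenGC with slide as a fixed block (0.018) and with arrays left out (-0.25 to 0.10), for DAL80 in HenGC with array weights (-0.010) and in scan day 1 (-0.072), for DAL3 in HenGC in scan day 1 (0.028), and for GZF3 in SoyGC with arrays left out (-0.38 to 0.0084). Between the preparations DAL4 and DAL7 turned with array weights (-0.10 and -0.27), in scan day 1 (-0.18 and -0.12) and with arrays left out (-0.17 to 0.27 and -0.078 to 0.36), and GZF3 with arrays left out (-0.046 to 0.22). Same-numbered arrays of different groups correlated in their deviations from the group means at -0.65 to 0.56, so the numbers were not taken as pairs, and not every array correlated best with its own number. The causes were not tested. The normexp version, the scan day 1 fits and the list counts were added after seeing the data. All 10 genes were well above background on all 9 arrays.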
